A study of Mus musculus and Acomys cahirinus with 84 samples.

Results

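The genes described here are 10 members of the Wnt pathway: the ligands Wnt5a, Wnt5b and Wnt2, the secreted antagonists Sfrp1, Sfrp2, Dkk2, Dkk3 and Wif1, and Axin2 and Lef1, both read as targets of the pathway. They were listed by symbol, with earlier results of these data known. All 10 were found among the 56980 genes of the mouse count table and all 10 among the 19818 genes of the *A. cahirinus* table. RNA was sequenced from primary skin fibroblasts of 3 populations, namely mice labelled C56BL6, wild mice and *A. cahirinus*, the African spiny mouse, a rodent known for regenerating skin after injury. Each population gave 7 groups of 4 libraries: untreated cells (0 Gy) and cells given 10 Gy or 20 Gy of gamma rays, collected at 24 h, the same 3 treatments collected at 12 d, and untreated cells that were passaged and collected at 12 d. The labels state no transgene, drug or other agent in any group. Age, sex, culture conditions and what passaging involved are not given in the sources used here. The labels give one batch name to every 24 h library and a different one to every 12 d library. Batch and time therefore cannot be told apart, and tests were made within a time only. Replicate numbers 1 to 4 stand for animal codes in the labels within a population, so each number should follow 1 animal through its 7 groups. Because these were bulk cultures, fewer cells of a type and less RNA per cell cannot be told apart in any value below.

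Wnt ligands are secreted lipid-modified proteins that bind Frizzled receptors. In the canonical branch, binding to Frizzled and the co-receptors Lrp5 and Lrp6 halts the breakdown of beta-catenin, which then joins Tcf and Lef factors in the nucleus and switches on targets. Axin2, a scaffold of the complex that breaks beta-catenin down, is the standard feedback target, and Lef1 encodes one of the nuclear factors and is itself a target in many cells. Wnt5a and Wnt5b are best known for beta-catenin-independent signalling, whereas Wnt2 usually acts through beta-catenin. Sfrp1, Sfrp2 and Wif1 bind Wnt proteins outside the cell, Dkk2 binds the Lrp co-receptors, and Dkk3 is a divergent relative of the Dickkopf family whose action on Wnt signalling is less settled. In skin, Wnt signals between dermal fibroblasts and the epidermis are needed for hair follicles and take part in wound repair.

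Start-site windows from RefSeq (mouse, GRCm38.p6, a different build from the counts) were available for 7 of the 10 members, as 12 windows of 300 bases that run from 250 bases before to 50 bases after an annotated start. They were searched on both strands for the 2 letter strings that Tcf and Lef factors are known to bind, CTTTGAT and CTTTGTT, which do not overlap each other. Of all 32851 windows in the table, 3.73% held CTTTGAT and 5.85% held CTTTGTT. Among the members' windows 1 of 12 held a match, a CTTTGAT in a window of Wnt5b that starts 71 bases before the annotated start. That window, on the minus strand of chr6:119449337-119449636, is printed along the gene's own strand with the match in capitals, beside the window of Axin2, on the plus strand of chr11:108920099-108920398, because Axin2 is the textbook target and its window held neither string.

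Wnt5b: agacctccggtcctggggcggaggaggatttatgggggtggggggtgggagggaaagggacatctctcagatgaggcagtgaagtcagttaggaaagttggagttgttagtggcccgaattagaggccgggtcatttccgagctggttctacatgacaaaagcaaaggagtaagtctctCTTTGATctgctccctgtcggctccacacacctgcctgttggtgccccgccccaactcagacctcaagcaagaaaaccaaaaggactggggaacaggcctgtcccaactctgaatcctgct
Axin2: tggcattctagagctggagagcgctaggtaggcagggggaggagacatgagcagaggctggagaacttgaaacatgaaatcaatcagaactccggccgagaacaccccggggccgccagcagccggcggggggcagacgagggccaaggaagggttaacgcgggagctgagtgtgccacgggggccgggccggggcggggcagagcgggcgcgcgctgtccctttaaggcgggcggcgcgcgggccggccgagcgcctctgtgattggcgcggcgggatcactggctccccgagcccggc

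A match in letters describes the sequence and is not a binding site, and a window without one says only that these letters are absent from these 300 bases.

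Deposited counts per library summed to 26.65 to 39.82 M for C56BL6, 17.42 to 35.98 M for wild mice, and, for *A. cahirinus*, 25.55 to 52.86 M, so 3 reads, the floor used for a gene at 0, corresponded to 0.075 to 0.113, 0.083 to 0.172 and 0.057 to 0.117 CPM, the counts of a gene per M counts of its library. All 10 fibroblast markers examined averaged at least 1 CPM in each population. Before the results, 3 sets of libraries that stood apart are described. Genes read at over 2 CPM in one set of libraries and under 0.1 CPM in another were used to compare animals. Wild replicate 1 at 12 d differed from wild replicate 1 at 24 h by 42 such genes and from wild replicate 4 by 0, whereas the 11 other pairs of equal number differed by 0. Wild pairs of different number differed by 9 to 100. The wild 12 d group may therefore hold 3 animals and not 4, and most of its calls among the 10 genes are given with and without replicate 1. Wild values of other Wnt genes are given with replicate 1 only. The measure does not separate all animals, since 4 of 24 pairs of different number in C56BL6 and 18 of 24 in *A. cahirinus* were also at 0. C56BL6 replicate 1 held 60.2 to 413 CPM of Krt5 and 130.2 to 419 CPM of Krt14, keratins of basal keratinocytes, in all 7 of its libraries. The 6 keratinocyte markers summed to 193 to 834 CPM there and to 1.14 to 3.51 CPM in the other 21 C56BL6 libraries, while Krt1 was at 0 in 6 of the 7 and Epcam in 4 of the 7. Wild replicate 1 at 24 h held 1912 to 2494 CPM of 4 mural and muscle markers, against 57.3 to 146 CPM in the 12 d libraries of the same number, and its 10 Gy library was the shallowest of the series. The same 4 markers summed to 553 to 1809 CPM over all *A. cahirinus* libraries and to 42 to 307 CPM over those of C56BL6. In wild replicate 3 they summed to 251 to 861 CPM. The part of these genes in the results below was not tested, and values without these replicates are given beside the results for many members.

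Levels are given as scaled CPM, that is CPM after TMM scaling over all libraries of a table. Only levels per kb of exon length are compared between genes, and the mouse and *A. cahirinus* tables were scaled separately. In untreated mouse cells Sfrp1 had the highest level of the 10, at 2018 ± 1041 scaled CPM per kb (SD, n = 4) in C56BL6 and 645 ± 459 in wild mice at 12 d, and 113 ± 102.1 and 225 ± 273 at 24 h. At 24 h its SD reached down to the level of the next genes, and in wild mice at 12 d it overlapped with that of Dkk2, at 114 ± 99.2 per kb. Dkk3 and Dkk2 came next, with 108 ± 21.2 and 61.3 ± 59.8 per kb in C56BL6 at 12 d, and their SDs overlapped in both mouse populations at both times. Wnt5a had the highest mean of the 3 ligands, at 9.72 ± 5.03 per kb in C56BL6 and 10.3 ± 4.39 in wild mice at 12 d. Wnt2 and Wnt5b were at 4.86 ± 5.87 and 1.31 ± 0.21 in C56BL6, where the SD of Wnt2 overlapped with those of both other ligands. Axin2, Lef1 and Wif1 averaged under 1 scaled CPM per kb in untreated mouse cells, except for Wif1 in wild mice at 12 d.

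The order in *A. cahirinus* was another one. Dkk3 led with 85.9 ± 11.5 scaled CPM per kb at 12 d and 112 ± 4.68 at 24 h, followed by Axin2 with 8.29 ± 0.911 and 3.74 ± 1.08 and Wif1 with 6.15 ± 1.17 and 3.29 ± 1.3. Sfrp1 stood at 3.38 ± 4.4 per kb at 12 d, with an SD above its mean because of replicate 2. Wnt5a was at 1.01 ± 0.145 and Wnt2 at 1.23 ± 0.158, and Wnt5b and Lef1 were lowest at 0.422 ± 0.0949 and 0.324 ± 0.0973. Sfrp2 and Dkk2 stood at 4.61 ± 1.53 and 0.877 ± 0.432. The SDs of the neighbours Axin2 and Wif1 overlapped at 24 h, and at 12 d the ranges of their libraries did. Those of Wnt5b and Lef1 overlapped at both times, so the order within these pairs is not settled. Levels of 1 gene in the mouse and the *A. cahirinus* table were counted on different annotations and are set side by side without a test.

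**Figure D1:**
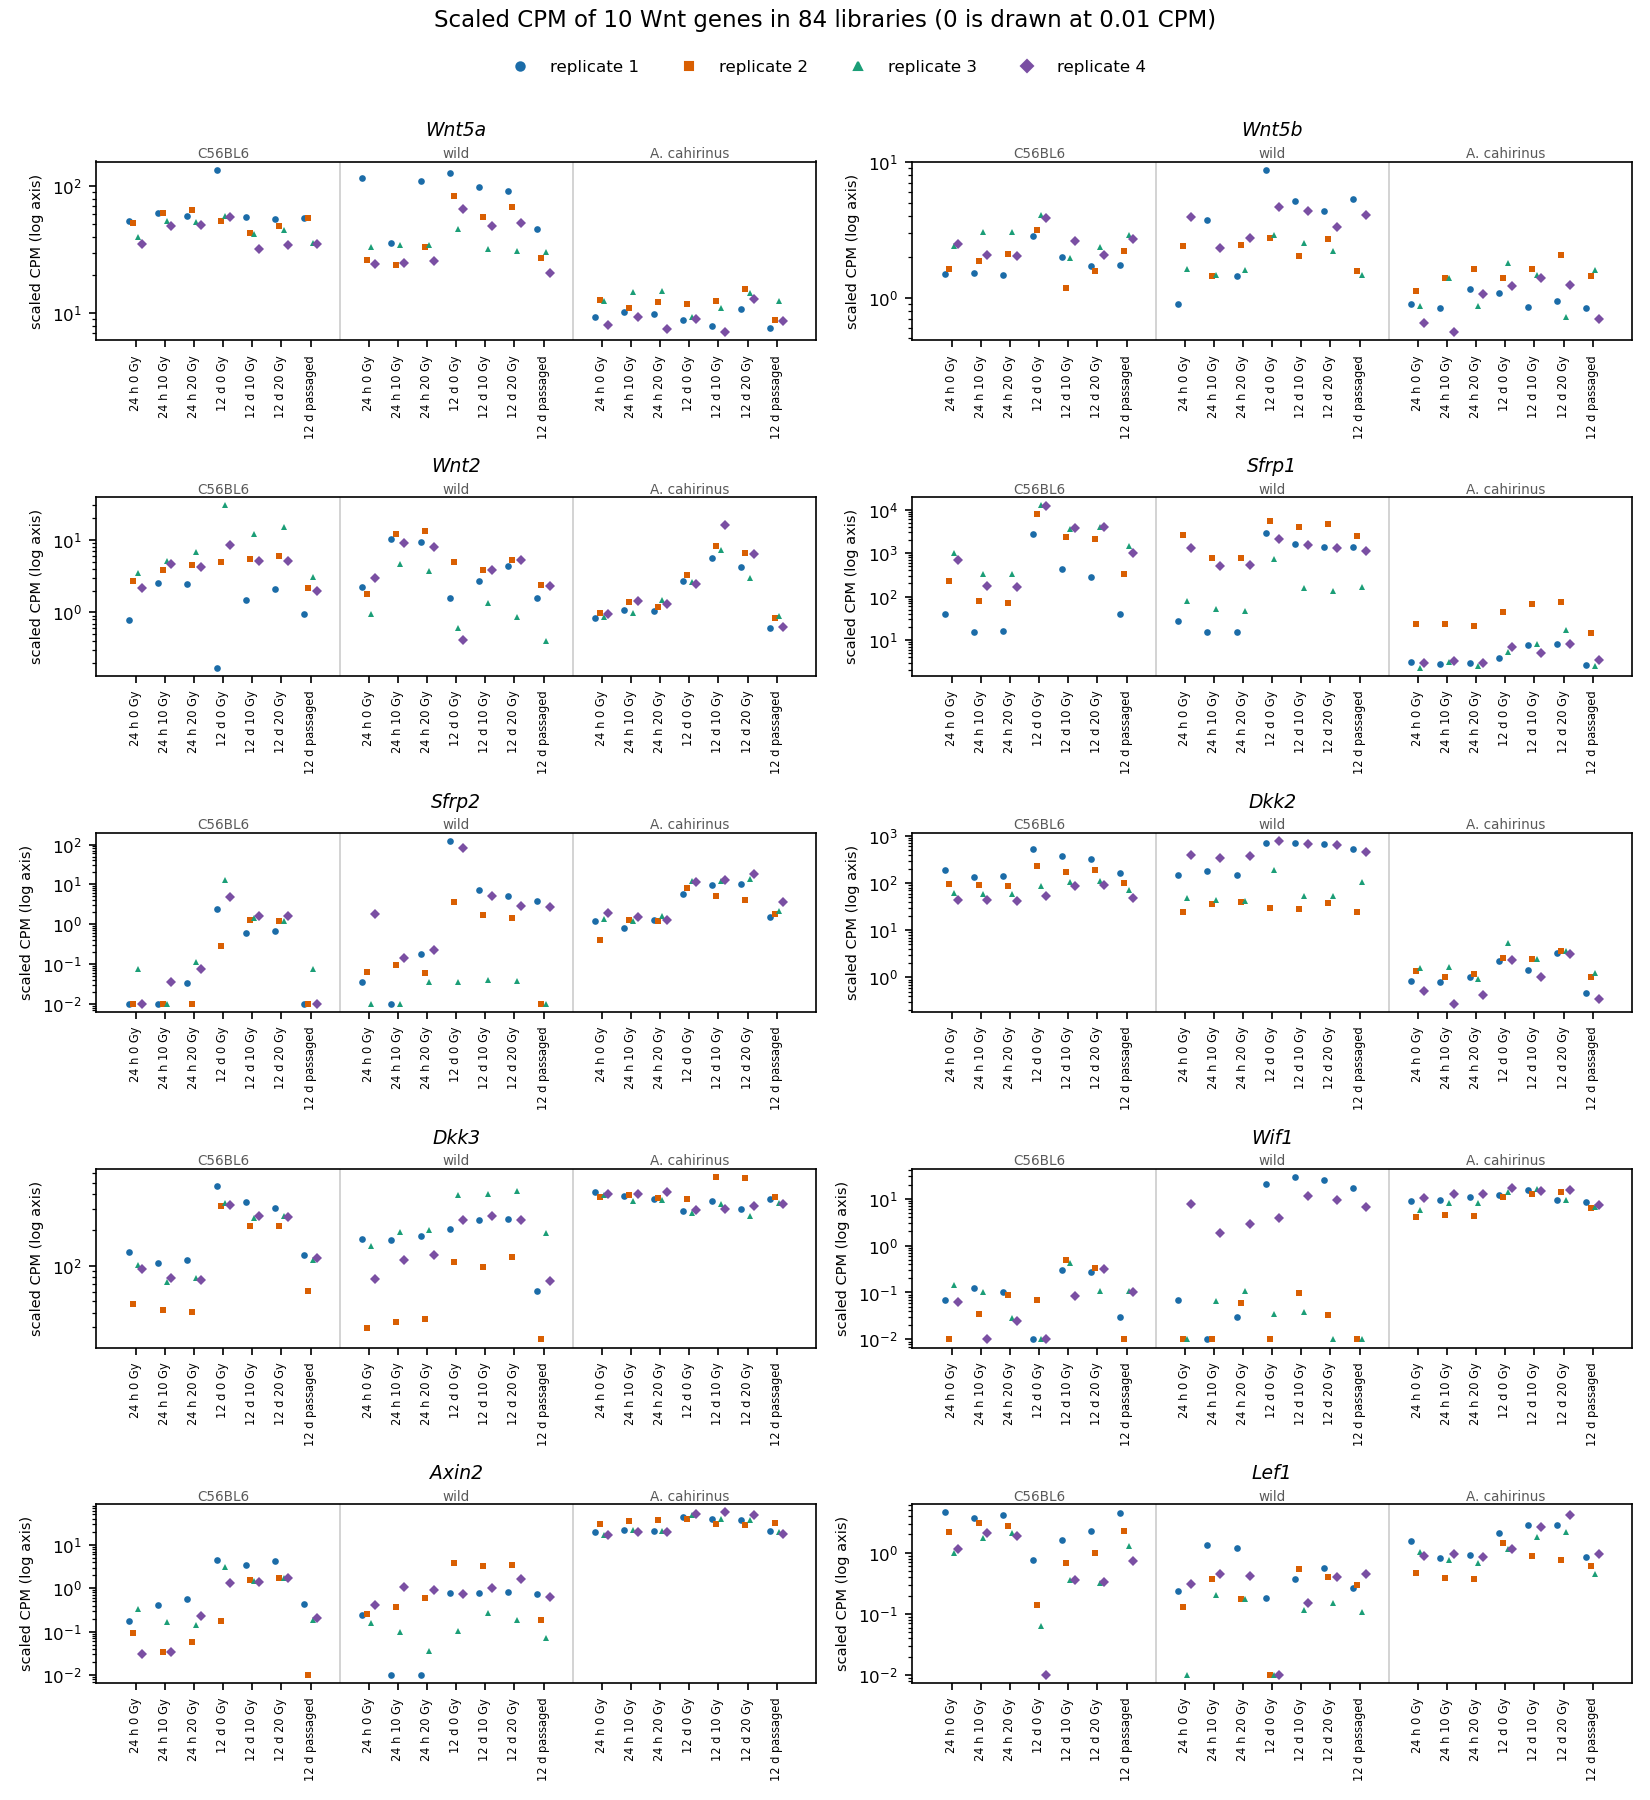
Scaled CPM (log axis, 0 drawn at 0.01) of the 10 genes in all 84 libraries, by population and group, with 1 symbol per replicate number. Sfrp1 and Dkk2 sit far lower in the spiny mouse than in most mouse libraries, Axin2 sits far higher, and replicate 2 of the spiny mouse stands above the other 3 for Sfrp1 in all 7 groups.

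Changes were tested with edgeR's quasi-likelihood test over all genes passing a filter on low counts, and an adjusted p under 0.05 (Benjamini-Hochberg over all those genes) is a call. Each comparison was fitted first without a block and then with the animal (replicate number) as one, since equal numbers mark the same animal and equal-numbered libraries deviated together. Fold changes are log2 with their SE, and 10 Gy and 20 Gy groups of 1 time share their untreated libraries, so their calls are not independent of each other. At 24 h after 20 Gy, the members called numbered 0 of 7 (0.0895% of all genes) without the block and 5 of 7 (17.6%) with it in C56BL6, 0 of 6 (0% of all genes) without the block and 3 of 6 (12.5%) with it in wild mice, and 0 of 10 (3.59% of all genes) without the block and 1 of 10 (24.1%) with it in *A. cahirinus*. After 10 Gy they numbered 0 of 7 (0.007% of all genes) without the block and 4 of 7 (11.5%) with it in C56BL6, 0 of 6 (0% of all genes) without the block and 0 of 6 (0%) with it in wild mice, and 0 of 10 (3.73% of all genes) without the block and 2 of 10 (27.6%) with it in *A. cahirinus*. Among these 6 comparisons without the block, 0 or 1 members had an unadjusted p under 0.05 in edgeR, and DESeq2 called 1 member, Wnt2, at each dose in wild mice and 0 in the other populations. The shares with the block exceed the background in C56BL6 but are near or below it in *A. cahirinus*.

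At 12 d after 20 Gy, calls numbered 1 of 9 (26.5% of all genes) without the block and 5 of 9 (47.5%) with it in C56BL6, 0 of 9 (0.0694% of all genes) without the block and 2 of 9 (15.4%) with it in wild mice, and 2 of 10 (31.8% of all genes) without the block and 4 of 10 (49.2%) with it in *A. cahirinus*. After 10 Gy they were 0 of 9 (20.9% of all genes) without the block and 5 of 9 (38.8%) with it in C56BL6, 0 of 9 (0.264% of all genes) without the block and 2 of 9 (12.7%) with it in wild mice, and 1 of 10 (2.87% of all genes) without the block and 2 of 10 (27.5%) with it in *A. cahirinus*. Where the count without the block was 0, C56BL6 at 10 Gy had 3 members with an unadjusted p under 0.05 and 2 called by DESeq2, and wild mice had 1 at 20 Gy and 0 at 10 Gy with 0 called by DESeq2. In the blocked fits without replicate 1, 0 members were called in wild mice at either dose. In C56BL6 the members were called no more often than genes in general without the block. Their median log2 fold change after 20 Gy was -0.59 for C56BL6, -0.21 for wild mice and 0.26 for *A. cahirinus*, against -0.01, -0.01 and 0.00 over all genes.

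In passaged cells most members that were called were lower. Against untreated cells at 12 d, calls numbered 4 of 8 (49.6% of all genes) without the block and 7 of 8 (60.1%) with it in C56BL6, 1 of 9 (10.7% of all genes) without the block and 6 of 9 (31.9%) with it in wild mice, and 6 of 10 (25.8% of all genes) without the block and 8 of 10 (49.5%) with it in *A. cahirinus*. The median change of the members was -1.52 for C56BL6, -1.14 for wild mice and -1.05 for *A. cahirinus*, against -0.02, -0.03 and -0.01 over all genes. Without the block, all 6 spiny mouse members called were lower in passaged cells, and 3 of the 4 in C56BL6 were lower. Cells given 20 Gy against passaged cells gave 4 of 9 (41.6% of all genes) without the block and 7 of 9 (56.1%) with it in C56BL6, 0 of 10 (10.5% of all genes) without the block and 3 of 10 (38%) with it in wild mice, and 6 of 10 (42.5% of all genes) without the block and 8 of 10 (56%) with it in *A. cahirinus*. In wild mice 2 members had an unadjusted p under 0.05 there and DESeq2 called 2. The C56BL6 calls of this comparison include Sfrp2, which passed the filter on low counts through the 20 Gy group.

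The 2 doses were compared directly as well. For 20 Gy against 10 Gy the counts were 0 of 7 (0% of all genes) without the block and 0 of 7 (1.44%) with it in C56BL6 at 24 h, 0 of 8 (0% of all genes) without the block and 0 of 8 (0%) with it in wild mice, and 0 of 10 (0% of all genes) without the block and 0 of 10 (0.302%) with it in *A. cahirinus*. At 12 d they were 0 of 10 (0% of all genes) without the block and 0 of 10 (0.297%) with it in C56BL6, 0 of 10 (0% of all genes) without the block and 0 of 10 (0.257%) with it in wild mice, and 0 of 10 (0.457% of all genes) without the block and 3 of 10 (17.9%) with it in *A. cahirinus*. Without the block 0 members had an unadjusted p under 0.05 in 5 of these 6 comparisons and 3 had one in *A. cahirinus* at 12 d, and DESeq2 called 0 in all 6.

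**Figure D2:**
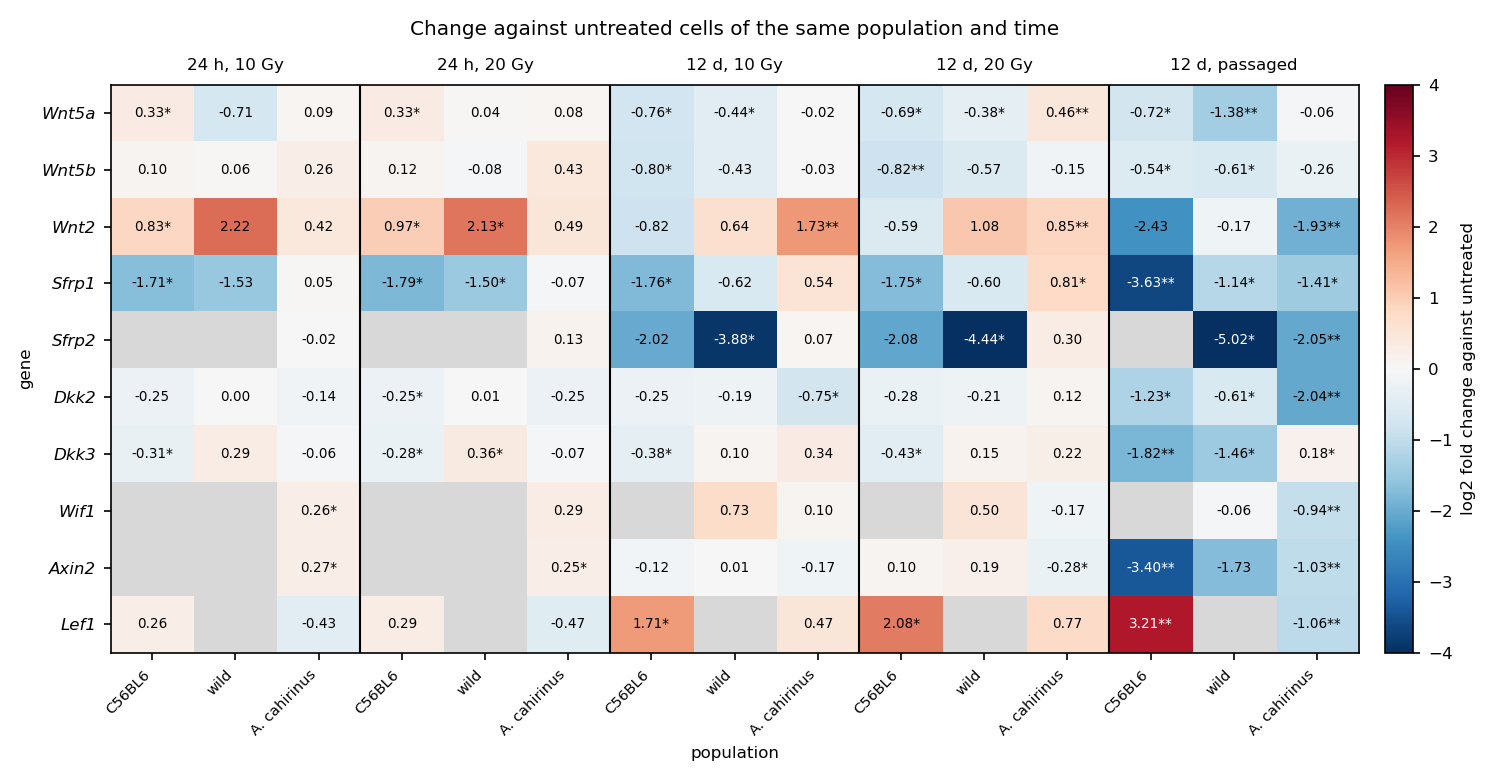
Log2 fold change of each gene (rows) against untreated cells of the same population and time (columns: 24 h and 12 d after 10 or 20 Gy, and passaged), with 2 asterisks for a call without the replicate block, 1 for a call only with it, and grey where the gene was not tested; colours stop at 4 in either direction. Sfrp1 is negative after irradiation in all mouse columns and near 0 or positive in the spiny mouse, and most cells of the passaged columns are negative.

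Wnt5a (GRCm39 chr14:28226707-28249405, plus strand), the ligand with the highest mean level per kb in untreated mouse cells, was lower than untreated after 20 Gy at 12 d in both mouse populations and higher in *A. cahirinus*. It was at 135, 53.2, 58.8 and 57.3 scaled CPM in untreated C56BL6 replicates 1 to 4 and at 55, 48.8, 45.5 and 34.8 after 20 Gy. Every animal was lower after irradiation, replicate 1 stood above the other 3 in the untreated group, and the groups overlapped. The change was -0.69 ± 0.32, with adjusted p = 0.141 without the block and 0.0361 with it, and -0.37 ± 0.11 with adjusted p = 0.0256 in the blocked fit without replicate 1. In *A. cahirinus* Wnt5a was at 8.85, 11.9, 9.37 and 9.06 untreated, 7.99, 12.4, 11 and 7.11 after 10 Gy and 10.8, 15.7, 14.4 and 13 after 20 Gy. After 10 Gy replicates 1 and 4 were lower than untreated and replicates 2 and 3 higher, with ratios of 0.903, 1.05, 1.17 and 0.784. After 20 Gy every animal was higher, although the groups overlapped, and the change was 0.46 ± 0.14 with adjusted p = 0.0398 without the block and 0.0079 with it. The call without the block was lost in 1 or more of the fits that leave out a replicate, with an adjusted p of up to 0.227.

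The difference between the 2 responses was itself past the threshold: the spiny mouse change exceeded that of C56BL6 by 1.15 ± 0.37 on the log2 scale, with adjusted p = 0.0421 without the block and 0.00513 with it. Without C56BL6 replicate 1 the blocked difference was 0.82 ± 0.15 (adjusted p = 0.00265). Wild cells were at 127, 83.2, 45.9 and 66.1 untreated and 91.5, 68.7, 30.8 and 51.3 after 20 Gy, lower in every replicate, with a change of -0.38 ± 0.39 and adjusted p = 0.743 without the block and 0.026 with it. Without replicate 1 the blocked change was -0.38 ± 0.11 with adjusted p = 0.135, the same size but no longer a call. The spiny mouse response exceeded the wild one by 0.86 ± 0.44, with adjusted p = 0.303 without the block and 0.0011 with it, and the blocked fit without wild replicate 1 gave 0.85 ± 0.14 and adjusted p = 0.0054.

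At 24 h the picture for Wnt5a in C56BL6 was the reverse of that at 12 d, although the 2 times were not tested against each other. It stood at 53.1, 51.3, 40.03 and 35.1 scaled CPM untreated, 61.6, 61, 53.2 and 48.7 after 10 Gy and 58.5, 65, 52.1 and 49.3 after 20 Gy. All 4 animals were higher at both doses, by 0.33 ± 0.14 at 10 Gy (adjusted p = 0.626 without the block and 0.00369 with it) and 0.33 ± 0.14 at 20 Gy (adjusted p = 0.498 without the block and 0.00128 with it). Wild cells showed no call. Their replicate 1 was far above the rest at 0 and 20 Gy, with 117 and 109.9 scaled CPM, and at 35.8 after 10 Gy, where replicate 3 had 34.7, the highest value of the other 3 replicates over the 3 groups.

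Passaged wild cells held less Wnt5a than untreated ones, 45.9, 27.4, 30.3 and 20.8 against 127, 83.2, 45.9 and 66.1 scaled CPM. The highest passaged and the lowest untreated value were equal to 3 digits, every replicate was lower, and the change of -1.38 ± 0.35 was the only wild call among the members without the block (adjusted p = 0.0454, and 0.00558 with it). It was lost when a replicate was left out without the block, with adjusted p of up to 0.175, and in the blocked fit without replicate 1 it was -1.3 ± 0.24 with adjusted p = 0.0347. In C56BL6 the passaged cells were at 56.1, 56.4, 35.9 and 35.3, a change of -0.72 ± 0.33 with adjusted p = 0.105 without the block and 0.0306 with it, and the blocked fit without replicate 1 gave -0.43 ± 0.16 and adjusted p = 0.0501. Spiny mouse cells were at 7.67, 8.89, 12.6 and 8.77 after passage, with overlapping groups and a change of -0.06 ± 0.18 (adjusted p = 0.825 without the block and 0.695 with it).

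Wnt5b (GRCm39 chr6:119409492-119521308, minus strand), the close paralog of Wnt5a, whose window with the Tcf/Lef string is printed above, was lower in irradiated C56BL6 cells at 12 d. It was at 2.86, 3.16, 4.03 and 3.85 scaled CPM untreated, 1.98, 1.18, 1.96 and 2.61 after 10 Gy and 1.72, 1.56, 2.34 and 2.06 after 20 Gy. Neither irradiated group overlapped with the untreated one. The change after 20 Gy, -0.82 ± 0.20 with adjusted p = 0.0209 without the block and 0.00575 with it, was the only C56BL6 irradiation call without the block among the members, and after 10 Gy it was -0.80 ± 0.26 (adjusted p = 0.0615 without the block and 0.0161 with it). Leaving out a replicate without the block gave adjusted p of up to 0.104 at 20 Gy, while the blocked fit without replicate 1 gave -0.86 ± 0.17 and 0.00462. Wild cells had values of 8.75, 2.76, 2.87 and 4.65 untreated and 4.35, 2.69, 2.19 and 3.31 after 20 Gy, a change of -0.57 ± 0.43 with adjusted p = 0.623 without the block and 0.161 with it, and of -0.29 ± 0.24 with adjusted p = 0.54 in the blocked fit without replicate 1. In *A. cahirinus* Wnt5b stayed between 0.555 and 2.06 scaled CPM in all 28 libraries and was called in none of the 8 comparisons within that species, with or without the block. Passaged mouse cells held less Wnt5b than untreated ones in every replicate, with -0.54 ± 0.22 in C56BL6 (adjusted p = 0.0688 without the block and 0.0195 with it) and -0.61 ± 0.56 in wild mice (adjusted p = 0.523 without the block and 0.0475 with it; 0.184 blocked without replicate 1).

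Wnt2 (GRCm39 chr6:17988939-18030584, minus strand), the canonical ligand of the 3, stood higher 24 h after irradiation than without it in every animal of both mouse populations. In edgeR the difference was called with the block alone, and not in wild cells at 10 Gy. DESeq2 without the block called it in wild cells at each dose. In wild cells it was at 2.26, 1.8, 0.943 and 2.97 scaled CPM untreated, 10.4, 12.1, 4.7 and 9.1 after 10 Gy and 9.37, 13.3, 3.78 and 8.01 after 20 Gy. Neither irradiated group overlapped with the untreated one, and the ratios within replicates 1 to 4 at 20 Gy were 4.15, 7.39, 4.01 and 2.7. The change at 20 Gy was 2.13 ± 0.47, with adjusted p = 0.527 without the block and 0.000389 with it. At 10 Gy it was 2.22 ± 0.44, with adjusted p = 0.756 without the block and 0.196 with it, in a comparison where no gene at all was called with the block; without replicate 1, whose 10 Gy library was the shallowest, the blocked fit gave 2.2 ± 0.22 and adjusted p = 0.000116.

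C56BL6 cells showed a smaller difference in the same direction, from 0.791, 2.68, 3.52 and 2.15 scaled CPM untreated to 2.53, 3.88, 5.11 and 4.7 after 10 Gy and 2.48, 4.45, 6.73 and 4.21 after 20 Gy. All 4 animals were higher at both doses while the groups overlapped. The changes were 0.83 ± 0.41 at 10 Gy (adjusted p = 0.701 without the block and 0.0113 with it) and 0.97 ± 0.44 at 20 Gy (adjusted p = 0.524 without the block and 0.000476 with it). Spiny mouse cells at 24 h held 0.831, 0.976, 0.862 and 0.938 untreated and 1.05, 1.18, 1.49 and 1.32 after 20 Gy. Each of their irradiated values was above each untreated one, but the change of 0.49 ± 0.20 was not called (adjusted p = 0.239 without the block and 0.0957 with it). The response of *A. cahirinus* at 20 Gy minus that of wild mice was -1.64 ± 0.51, a difference past the threshold only with the block (adjusted p = 0.439 without the block and 0.00693 with it).

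At 12 d Wnt2 was called in *A. cahirinus*. It stood at 2.73, 3.32, 2.64 and 2.5 scaled CPM untreated, 5.61, 8.22, 7.21 and 16.3 after 10 Gy and 4.29, 6.59, 2.97 and 6.34 after 20 Gy. The 10 Gy group lay wholly above the untreated one and the 20 Gy group overlapped with it, although every animal was higher at both doses. The changes were 1.73 ± 0.33 at 10 Gy (adjusted p = 0.0405 without the block and 0.00471 with it) and 0.85 ± 0.26 at 20 Gy (adjusted p = 0.0367 without the block and 0.0165 with it), and 20 Gy against 10 Gy gave -0.88 ± 0.38 (adjusted p = 0.342 without the block and 0.0243 with it). Leaving out a replicate without the block gave adjusted p of up to 0.273 at 10 Gy and 0.184 at 20 Gy. C56BL6 untreated cells ranged widely at 12 d, 0.17, 4.99, 30.1 and 8.58 scaled CPM, against 2.13, 5.97, 15 and 5.2 after 20 Gy. The change of -0.59 ± 1.09 was not called (adjusted p = 0.719 without the block and 0.998 with it), and the animals differed in direction: replicate 1 went from 0.17 to 2.13 and replicate 3 from 30.1 to 15. After 10 Gy it was not called with all 4 animals (-0.82 ± 1.1, adjusted p = 0.634 without the block and 0.707 with it), but without replicate 1 the blocked change was -0.68 ± 0.22 (adjusted p = 0.0334).

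Passaged spiny mouse cells held less Wnt2, at 0.614, 0.832, 0.888 and 0.629 scaled CPM. Each passaged value was below each untreated one, and it fell by 1.93 ± 0.21 on the log2 scale, a call that held in every fit that left out a replicate, with adjusted p = 0.00106 in full and at most 0.0243. Compared with passaged cells, 20 Gy cells held more Wnt2 in *A. cahirinus* (2.77 ± 0.30, adjusted p = 0.000344 without the block and 0.000269 with it) and in C56BL6 (1.81 ± 0.59, adjusted p = 0.0371 without the block and 0.000428 with it), and in wild mice with the block alone (1.24 ± 0.68, adjusted p = 0.287 without the block and 0.00202 with it; 0.0145 without replicate 1). C56BL6 passaged cells were at 0.944, 2.16, 3.09 and 1.97, with a change against untreated cells of -2.43 ± 1.09 (adjusted p = 0.0956 without the block and 0.0995 with it). In the blocked fit without C56BL6 replicate 1 that change was -2.27 ± 0.36 with adjusted p = 0.00143.

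Sfrp1 (GRCm39 chr8:23901518-23939648, plus strand), a soluble Frizzled-like protein that binds Wnt ligands, differed between irradiated and untreated mouse cells in the same direction in every animal, dose and time. At 24 h C56BL6 cells were at 39.6, 229, 1025 and 691 scaled CPM untreated, 15.6, 79.8, 334 and 175 after 10 Gy and 16, 69.9, 322 and 163 after 20 Gy. The animals kept their order, replicate 3 above 4 above 2 above 1, in all 3 groups, and the highest was 20.2 to 25.9 times the lowest, so the groups overlapped. Within animals the ratio of 20 Gy to untreated was 0.403, 0.305, 0.314 and 0.236. The change of -1.79 ± 1.03 at 20 Gy had adjusted p = 0.649 without the block and 8.86e-08 with it, and that of -1.71 ± 1.03 at 10 Gy had adjusted p = 0.775 without the block and 3.28e-06 with it. Without replicate 1 the blocked changes were -1.82 ± 0.06 and -1.71 ± 0.06.

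Wild cells showed the same pattern at 24 h, with 27.1, 2545, 77.8 and 1285 scaled CPM untreated and 15.1, 767, 46.9 and 541 after 20 Gy. Replicates 2 and 4 were far above replicates 1 and 3, and every animal was lower after irradiation, with ratios of 0.557, 0.301, 0.603 and 0.421. The change was -1.5 ± 1.54 with adjusted p = 1 without the block and 0.000662 with it. After 10 Gy the blocked fit without replicate 1 gave -1.23 ± 0.16 (adjusted p = 0.000539), where the one with all 4 replicates called no gene. In *A. cahirinus* Sfrp1 was at 3.12, 23.4, 2.28 and 3.01 untreated and 3.05, 21.3, 2.53 and 3.0 after 20 Gy, a change of -0.07 ± 0.97 (adjusted p = 0.984 without the block and 0.906 with it). The groups overlapped, and the ratios within animals were close to 1 at 0.977, 0.909, 1.11 and 0.997. The spiny mouse response differed from that of C56BL6 by 1.74 ± 1.52 (adjusted p = 0.811 without the block and 1.22e-06 with it) and from that of wild mice by 1.41 ± 1.94 (adjusted p = 1 without the block and 0.00319 with it), in both cases past the threshold with the block alone.

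The same direction was found at 12 d in C56BL6, where untreated replicates stood at 2800.5, 7798, 12489 and 12201 scaled CPM, against 429.7, 2294, 3631 and 3749 after 10 Gy and 286, 2142, 3892 and 3879 after 20 Gy. Every animal was lower at both doses, with ratios of 0.102, 0.275, 0.312 and 0.318 at 20 Gy, and only replicate 1 of the untreated group lay inside the range of the irradiated ones. The changes were -1.76 ± 0.69 (adjusted p = 0.105 without the block and 0.000264 with it) and -1.75 ± 0.77 (adjusted p = 0.124 without the block and 0.00229 with it), and without replicate 1 the blocked values were -1.71 ± 0.12 and -1.7 ± 0.10. Wild cells had 2902, 5511, 732 and 2128 untreated and 1352, 4615, 135 and 1292 after 20 Gy, lower in every replicate, but the change of -0.60 ± 0.93 was not called (adjusted p = 0.844 without the block and 0.0816 with it), nor was -1.09 ± 0.47 in the blocked fit without replicate 1 (adjusted p = 0.245). Spiny mouse cells went the other way, from 3.81, 44.5, 5.22 and 6.82 to 8.07, 73.1, 16.9 and 8.3. All 4 animals were higher, replicate 2 stood far above the other 3 in each group, and the change of 0.81 ± 0.98 was called with the block alone (adjusted p = 0.56 without the block and 0.00995 with it).

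As differences of responses at 12 d, *A. cahirinus* minus C56BL6 was 2.58 ± 1.35 for Sfrp1 (adjusted p = 0.199 without the block and 0.00049 with it), and *A. cahirinus* minus wild was 1.4 ± 1.45 (adjusted p = 0.658 without the block and 0.0124 with it). Without wild replicate 1 the latter was 2.04 ± 0.53 with adjusted p = 0.0334 in the blocked fit.

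Sfrp1 was also lower in passaged cells. In C56BL6 it was at 38.9, 330.1, 1472 and 1009 scaled CPM, below every untreated library of the group, and it fell by 3.63 ± 1.01 on the log2 scale (adjusted p = 0.0177 without the block and 0.000944 with it). Leaving out a replicate gave adjusted p of up to 0.0846 without the block, and the blocked fit without replicate 1 gave -3.73 ± 0.29 (6.8e-05). Wild passaged cells had 1349, 2508, 168 and 1123, a change of -1.14 ± 0.81 (adjusted p = 0.404 without the block and 0.0109 with it); without replicate 1 the blocked adjusted p was 0.0505. Passaged spiny mouse cells had 2.72, 14.6, 2.53 and 3.57, lower than untreated in each animal, with a change of -1.41 ± 0.92 (adjusted p = 0.293 without the block and 0.00132 with it).

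**Figure D3:**
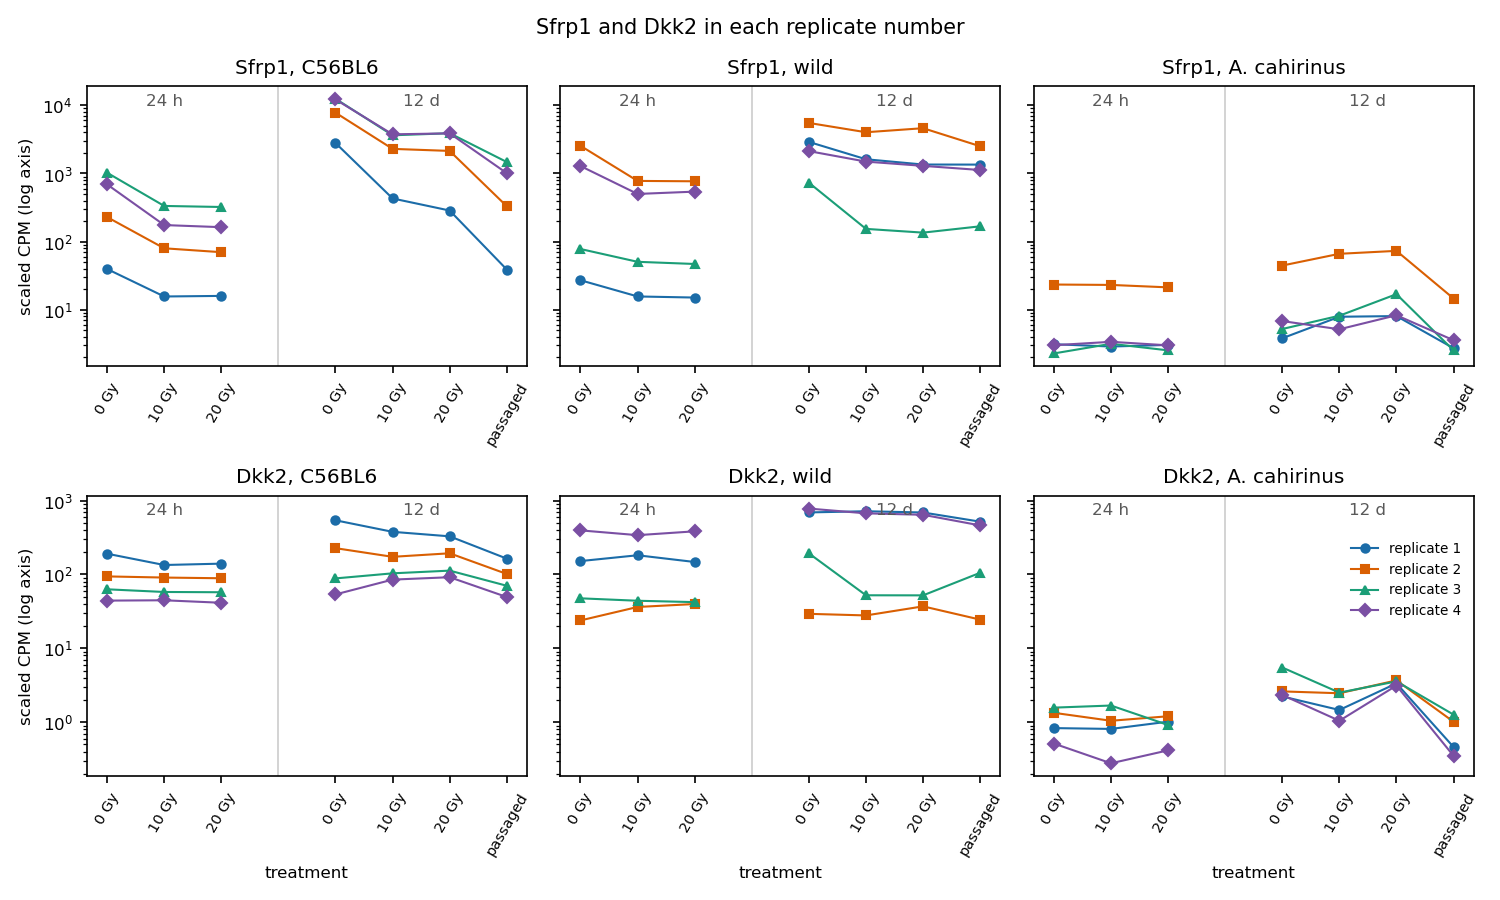
Scaled CPM (log axis) of Sfrp1 (top) and Dkk2 (bottom) against treatment at 24 h and 12 d, with 1 line per replicate number in each population. The Sfrp1 lines slope down from 0 Gy to 20 Gy in all mouse replicates, from 229 to 69.9 in C56BL6 replicate 2 at 24 h for example, while most Dkk2 lines of different mouse animals stay apart from 0 to 20 Gy.

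Sfrp2 (GRCm39 chr3:83673628-83681623, plus strand), a gene of the same family, was close to undetected in C56BL6 cells at 24 h, where the 12 libraries together held 11 reads. The wild untreated libraries of that time held 0.0343, 0.0643, 0 and 1.75 scaled CPM, nearly all of it in replicate 4. At 12 d untreated C56BL6 cells held 2.38, 0.281, 12.9 and 4.85 scaled CPM and 20 Gy cells 0.682, 1.2, 1.19 and 1.61. Replicate 2 went against the other 3, and the change of -2.08 ± 0.89 was not called (adjusted p = 0.117 without the block and 0.154 with it). The 4 passaged C56BL6 libraries together held 2 reads, and 3 of the 4 had none, so no fold against them is given. Relative to them, the 20 Gy group was called higher (adjusted p = 0.000554 without the block and 0.000246 with it). Sfrp2 passed the filter on low counts there through the 20 Gy group in which it was higher, so this call is no independent support.

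Wild cells at 12 d split by animal. Untreated replicates 1 to 4 held 123, 3.52, 0.0342 and 83.7 scaled CPM of Sfrp2, 20 Gy cells 5.06, 1.41, 0.0372 and 2.88 and passaged cells 3.75, 0, 0 and 2.71. Replicates 1 and 4, which did not differ in the comparison of animals above, held nearly all of it, and replicate 3 was at or near 0 in each group. The change after 20 Gy was called with the block (-4.44 ± 1.82, adjusted p = 0.336 without the block and 0.0126 with it) but not in the blocked fit without replicate 1 (-3.26 ± 0.85, adjusted p = 0.109). After passage the change of -5.02 ± 2.09 had adjusted p = 0.16 without the block and 0.00116 with it, and without replicate 1 it was -5.22 ± 0.49 with adjusted p = 0.019.

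In *A. cahirinus* Sfrp2 did not respond detectably to irradiation, with 5.6, 8.06, 12.1 and 11.8 scaled CPM untreated at 12 d and 9.98, 4.06, 13.6 and 18.3 after 20 Gy (0.30 ± 0.44, adjusted p = 0.629 without the block and 0.587 with it). Passaged cells held 1.5, 1.84, 2.15 and 3.64, all below the untreated ones. It fell by 2.05 ± 0.34 on the log2 scale (adjusted p = 0.00459 without the block and 3.09e-05 with it; up to 0.0549 with a replicate left out and no block). The blocked response of *A. cahirinus* to 20 Gy at 12 d exceeded that of wild mice by 4.11 ± 0.74 (adjusted p = 0.00417, 0.167 without the block), and by 3.54 ± 0.91 (0.0308) without wild replicate 1.

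Dkk2 (GRCm39 chr3:131791053-131886065, plus strand), an antagonist at the Lrp co-receptors, differed more between animals than between treatments in mouse cells. Its 24 h values in C56BL6 were 191, 93.9, 62.8 and 44.2 scaled CPM untreated and 139.8, 88.6, 57.3 and 41.3 after 20 Gy. The order of replicates 1, 2, 3 and 4 from high to low held in all 3 groups at 24 h and all 4 at 12 d. The change at 20 Gy of -0.25 ± 0.50 was called with the block alone (adjusted p = 0.929 without the block and 0.0432 with it), and without replicate 1 it was -0.10 ± 0.05 with adjusted p = 0.183, so this call rests on that animal. Wild replicates 1 and 4 held 689.7 and 778 untreated at 12 d against 29.2 and 193 in replicates 2 and 3.

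Irradiation gave no Dkk2 call in wild mice at either time. In *A. cahirinus* at 12 d, Dkk2 was at 2.23, 2.61, 5.49 and 2.33 scaled CPM untreated, 1.46, 2.46, 2.51 and 1.04 after 10 Gy and 3.35, 3.68, 3.56 and 3.13 after 20 Gy. The 20 Gy group lay wholly above the 10 Gy group, with a change of 0.88 ± 0.29 (adjusted p = 0.221 without the block and 0.0232 with it), whereas 10 Gy against untreated gave -0.75 ± 0.40 (adjusted p = 0.315 without the block and 0.0429 with it). Passaged cells of this species held 0.46, 1.01, 1.26 and 0.35, below every untreated library, and it fell by 2.04 ± 0.47 (adjusted p = 0.0164 without the block and 0.00027 with it; up to 0.0884 with a replicate left out and no block). Passaged mouse cells differed from untreated ones with the block alone, by -1.23 ± 0.71 in C56BL6 (adjusted p = 0.18 without the block and 0.0332 with it) and -0.61 ± 1.1 in wild mice (adjusted p = 0.77 without the block and 0.0196 with it); without replicate 1 the blocked values were -0.53 ± 0.19 (adjusted p = 0.0411) and -0.64 ± 0.17 (0.0656).

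Dkk3 (GRCm39 chr7:111715224-111758264, minus strand), the divergent Dickkopf gene, differed on passage between mouse and spiny mouse. C56BL6 cells at 12 d held 468, 321, 335 and 324 scaled CPM untreated and 122, 60.7, 112 and 115 passaged. The groups were far apart, and Dkk3 fell by 1.82 ± 0.24 on the log2 scale, a call made in every fit that left out a replicate (adjusted p = 0.000757 without the block and 0.000241 with it; at most 0.0113). Wild cells held 202, 108, 398 and 243 untreated and 60.6, 23.8, 188 and 73.9 passaged, with within-replicate ratios of 0.3, 0.22, 0.472 and 0.305. Every replicate was lower, with overlapping groups and a change of -1.46 ± 0.62 (adjusted p = 0.169 without the block and 0.00312 with it; 0.0237 blocked without replicate 1). In *A. cahirinus* the values were 291, 367, 276 and 293 untreated and 363, 380.4, 339 and 331 passaged, higher in every animal, with a change of 0.18 ± 0.11 (adjusted p = 0.236 without the block and 0.0372 with it). The passage effect of *A. cahirinus* exceeded that of C56BL6 by 1.99 ± 0.27, with adjusted p = 0.00021 without the block and 3.01e-05 with it.

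Dkk3 also differed after irradiation, with the block alone, in C56BL6 cells at both times and in wild cells at 24 h after 20 Gy. Wild cells at 12 d showed no call, with ratios of 20 Gy to untreated of 1.23, 1.09, 1.07 and 0.997. Without replicate 1 the blocked change there was 0.09 ± 0.13 (adjusted p = 0.711). At 12 d C56BL6 cells were at 307, 217, 262 and 258 scaled CPM after 20 Gy, all below the untreated group, a change of -0.43 ± 0.16 (adjusted p = 0.0748 without the block and 0.00427 with it). After 10 Gy they were at 345, 218, 253 and 262, with -0.38 ± 0.18 (adjusted p = 0.158 without the block and 0.00678 with it). At 24 h the directions of the mouse populations differed: 129.7, 46.9, 101.5 and 94.2 untreated against 110.5, 40.6, 78.6 and 75.7 after 20 Gy in C56BL6, lower in every animal (-0.28 ± 0.35, adjusted p = 0.874 without the block and 0.00125 with it). In wild mice 168, 29.9, 145 and 77.1 untreated stood against 178, 35.5, 198 and 122 after 20 Gy, higher in every animal (0.36 ± 0.63, adjusted p = 1 without the block and 0.0238 with it). Groups overlapped in both populations. After 10 Gy the wild ratios in replicates 1 to 4 were 0.974, 1.12, 1.32 and 1.45, and the blocked fit with all replicates called no gene. Without replicate 1, the one that was not higher, the blocked fit gave 0.39 ± 0.08 (adjusted p = 0.00547). The wild minus C56BL6 response was 0.63 ± 0.77 (adjusted p = 1 without the block and 0.0226 with it), and blocked it was 0.75 ± 0.10 (0.002) without wild replicate 1 and 0.67 ± 0.12 (0.0334) without C56BL6 replicate 1. In *A. cahirinus* Dkk3 was not called after irradiation at either time, and stood at 303, 553, 261 and 316 after 20 Gy at 12 d. Its response to 20 Gy minus that of C56BL6 at 12 d was 0.66 ± 0.30 (adjusted p = 0.139 without the block and 0.0105 with it), and minus that of wild mice at 24 h it was -0.44 ± 0.67 (adjusted p = 1 without the block and 0.0291 with it).

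Wif1 (GRCm39 chr10:120869865-120936555, plus strand), which binds Wnt proteins through a domain of its own, was found at over 1 scaled CPM only in the spiny mouse, in wild replicate 4 and, at 12 d, in wild replicate 1. C56BL6 libraries held at most 0.5 scaled CPM, and the 4 untreated ones at 12 d held 2 reads in all, so no fold is given. After 20 Gy at 12 d they held 0.273, 0.333, 0.108 and 0.312, all above the untreated ones. Wild untreated cells at 12 d were at 20.9, 0, 0.0342 and 3.88, and at 24 h at 0.0685, 0, 0 and 7.63. Replicate 4 was high at both times, and replicate 1 was high at 12 d and near 0 at 24 h. In *A. cahirinus* Wif1 ranged from 4.01 to 16.9 scaled CPM over all 28 libraries.

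Passaged spiny mouse cells held less Wif1, 8.52, 6.22, 6.63 and 7.17 scaled CPM against 12.2, 11, 13.8 and 16.9 untreated. The groups did not overlap, and it fell by 0.94 ± 0.16 on the log2 scale (adjusted p = 0.00498 without the block and 0.000593 with it; up to 0.0583 with a replicate left out and no block). After 20 Gy the values were 9.26, 13.6, 9.37 and 15.5, with a change of -0.17 ± 0.21 (adjusted p = 0.555 without the block and 0.321 with it). At 24 h after 10 Gy the change of 0.26 ± 0.36 had adjusted p = 0.784 without the block and 0.05 with it, the latter under the threshold before rounding. The 12 d response to 20 Gy in *A. cahirinus* minus that in C56BL6 was -3.9 ± 0.77 (adjusted p = 0.00387 without the block and 0.00214 with it). Since C56BL6 untreated cells held only 2 reads, the fitted size depends on the prior count of the model and is no bound. Within C56BL6 the filter on low counts removed Wif1 from this comparison. It entered the fit of the difference through the *A. cahirinus* libraries, where it is high, so the call is no independent support for a difference.

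Axin2 (GRCm39 chr11:108811175-108841609, plus strand), the feedback target of the canonical branch whose start-site window is printed above, was on a different scale in the 2 species. The 28 spiny mouse libraries held 16.8 to 55.7 scaled CPM, and the 56 mouse libraries at most 4.36, in tables scaled separately. At 24 h Axin2 was too low to be tested against untreated cells in the mouse with all 4 replicates. In wild cells the blocked fits without replicate 1 gave 0.81 ± 0.52 after 20 Gy (adjusted p = 0.331) and 0.78 ± 0.47 after 10 Gy (0.265), not called. In *A. cahirinus* it was at 19.8, 29.7, 17.1 and 16.8 untreated, 22.1, 35.5, 22.4 and 20.1 after 10 Gy and 21.2, 36.7, 20.8 and 19.4 after 20 Gy. Every animal was higher at both doses, replicate 2 stood above the other 3 in each group, and the groups overlapped. The changes of 0.27 ± 0.24 (adjusted p = 0.64 without the block and 0.00918 with it) and 0.25 ± 0.25 (adjusted p = 0.688 without the block and 0.0345 with it) were called with the block alone.

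At 12 d the direction in *A. cahirinus* was the opposite, with 44.7, 39.9, 48.5 and 51.7 scaled CPM untreated and 36.7, 28, 37.1 and 49.8 after 20 Gy, lower in every animal (-0.28 ± 0.18, adjusted p = 0.26 without the block and 0.0306 with it). Passaged cells held 20.7, 32.4, 20.1 and 18.1. All were below the untreated values, and it fell by 1.03 ± 0.18 (adjusted p = 0.00516 without the block and 0.00111 with it; up to 0.0596 with a replicate left out and no block). C56BL6 untreated cells at 12 d held 4.36, 0.176, 3.06 and 1.32, 20 Gy cells 4.2, 1.72, 1.72 and 1.68 and passaged cells 0.443, 0, 0.182 and 0.204. Every animal was lower after passage, and the groups overlapped because untreated replicate 2 lay within the passaged range. Axin2 fell by 3.4 ± 1.05 on passage (adjusted p = 0.027 without the block and 0.00045 with it; up to 0.127 with a replicate left out), from low counts, and after 20 Gy the change was 0.10 ± 0.76 (adjusted p = 0.933 without the block and 0.575 with it). The passage effect of *A. cahirinus* minus that of C56BL6 was 2.35 ± 0.94 (adjusted p = 0.0775 without the block and 0.00148 with it).

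Lef1 (GRCm39 chr3:130904120-131018005, plus strand), the nuclear partner of beta-catenin, differed in opposite directions on passage in C56BL6 and *A. cahirinus*. In C56BL6 it was at 0.749, 0.14, 0.063 and 0 scaled CPM untreated and 4.48, 2.28, 1.27 and 0.748 passaged. Every animal was higher, replicate 1 was highest in both groups, and it alone made the groups overlap. The change was 3.21 ± 1.01 (adjusted p = 0.0293 without the block and 0.00114 with it; up to 0.131 with a replicate left out and no block), and 4.39 ± 0.49 (0.0003) in the blocked fit without replicate 1. The untreated libraries of that last fit were at 0.14, 0.063 and 0, of which 0.063 and 0 lie under the 3-read floor. Its size therefore depends on the prior count and is no bound. In *A. cahirinus* the values were 2.09, 1.45, 1.17 and 1.15 untreated and 0.844, 0.615, 0.444 and 0.944 passaged. The groups did not overlap and Lef1 fell by 1.06 ± 0.32 (adjusted p = 0.0402 without the block and 0.0118 with it; up to 0.167). The passage effect of *A. cahirinus* minus that of C56BL6 was -4.28 ± 1.1, with adjusted p = 0.0111 without the block and 0.000174 with it.

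Irradiated C56BL6 cells at 12 d also held more Lef1, 1.65, 0.677, 0.357 and 0.364 scaled CPM after 10 Gy and 2.26, 0.999, 0.323 and 0.336 after 20 Gy, higher in every animal. The changes were 1.71 ± 1.0 (adjusted p = 0.255 without the block and 0.0171 with it) and 2.08 ± 1.07 (adjusted p = 0.182 without the block and 0.00795 with it), both from an untreated group with 28 reads in all. In the blocked fits without replicate 1 they were 2.82 ± 0.63 (adjusted p = 0.0056) and 3.03 ± 0.57 (0.00407). The untreated libraries left there were at 0.14, 0.063 and 0 scaled CPM, so these sizes depend on the prior count and are no bounds. At 24 h Lef1 levels of 4.58, 2.18, 0.98 and 1.17 untreated and 4.12, 2.74, 2.1 and 1.92 after 20 Gy gave a change of 0.29 ± 0.49 (adjusted p = 0.917 without the block and 0.171 with it), with replicate 1 lower and the other 3 higher. Without replicate 1 the blocked change was 0.67 ± 0.21 and past the threshold (0.0264), and after 10 Gy it was 0.70 ± 0.21 (0.0183). Spiny mouse cells at 24 h held 1.57, 0.47, 1.01 and 0.871 untreated and 0.914, 0.371, 0.682 and 0.869 after 20 Gy (-0.47 ± 0.41, adjusted p = 0.62 without the block and 0.223 with it). Wild Lef1 was at most 1.35 scaled CPM in any library, with 4 reads over the 4 untreated libraries at 12 d.

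Tests of the response difference between populations gave these counts of members. For 20 Gy at 24 h, *A. cahirinus* against C56BL6 gave 0 of 10 (2.09% of all genes) without the block and 1 of 10 (16.8%) with it, *A. cahirinus* against wild mice 0 of 10 (0% of all genes) without the block and 4 of 10 (7.25%) with it, and wild mice against C56BL6 0 of 8 (0% of all genes) without the block and 1 of 8 (0.647%) with it. At 12 d they gave 2 of 10 (18.8% of all genes) without the block and 4 of 10 (38%) with it, then 0 of 10 (3.31% of all genes) without the block and 3 of 10 (23.4%) with it, then 0 of 10 (0% of all genes) without the block and 0 of 10 (0.101%) with it. For passage, *A. cahirinus* against C56BL6 gave 3 of 10 (27.7% of all genes) without the block and 5 of 10 (45.2%) with it. Where the count without the block was 0, at most 1 member had an unadjusted p under 0.05, and DESeq2 called 0. These tests share the *A. cahirinus* libraries or the C56BL6 libraries, so they are not independent of each other. Members too low to be tested within a mouse population could enter them through the *A. cahirinus* libraries. Wif1, called at 12 d after 20 Gy against C56BL6, did so. In the passage comparison the called members were Dkk3 and Lef1, above, and Sfrp2, at 5.92 ± 1.47 (adjusted p = 0.00913 without the block and 2.47e-05 with it), a fitted value that rests on 2 C56BL6 reads, depends on the prior count and is no bound. Sfrp2 was too low to be tested on passage within C56BL6. It entered this fit through the *A. cahirinus* libraries, so its call is no independent support for a difference.

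**Figure D4:**
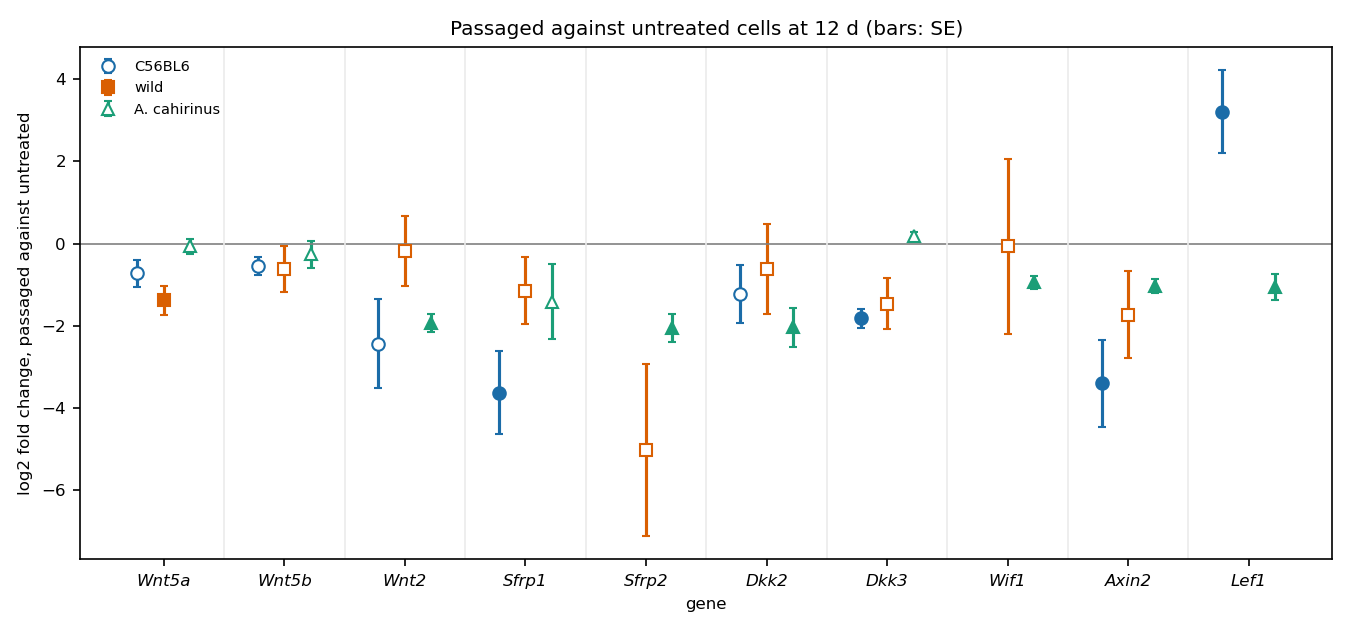
Log2 fold change of passaged against untreated cells at 12 d for each gene in the 3 populations, with SE bars, filled symbols for calls without the replicate block and open ones otherwise; genes not tested in a population have no symbol. Dkk3 lies at -1.82 in C56BL6 and 0.18 in the spiny mouse, and Lef1 at 3.21 and -1.06.

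Passage also changed genes of dividing cells, whose part in these results was not tested. The summed level of 8 such genes was 82.3 to 320.0 scaled CPM in untreated and 645 to 899 in passaged C56BL6 cells at 12 d, 58.9 to 309 and 429 to 867 in wild cells, and 288 to 387 and 348 to 637 in spiny mouse cells. After 20 Gy at 12 d it was 58.5 to 111 in C56BL6, 63.1 to 152 in wild mice and 81 to 82.1 in *A. cahirinus*, and without the block 0, 0 and 7 of these genes were lower (of 8, 8 and 7 tested). With the block, 6, 2 and 7 were. At 24 h it was 994 to 1275 in untreated and 272 to 555 in 20 Gy cells of *A. cahirinus*, against 709 to 979 and 809 to 990.2 in C56BL6 and 489.8 to 886 and 465 to 625 in wild mice. Without the block 6, 0 and 0 of the 8 were lower, and with it 8, 1 and 4.

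Untreated cells of the 2 mouse populations, which were counted in one table, were compared as well. At 24 h 1 of 7 members tested (5.7% of all genes) was called, and at 12 d 0 of 8 (2.93%), where 1 member had an unadjusted p under 0.05 and DESeq2 called 0. The gene called was Lef1, at 0.24, 0.129, 0 and 0.313 scaled CPM in wild and 4.58, 2.18, 0.98 and 1.17 in C56BL6 cells. The groups did not overlap, and wild against C56BL6 gave -3.66 ± 0.85 (adjusted p = 0.0453; up to 0.116 with a replicate left out).

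Cells given 20 Gy and passaged cells, both kept to 12 d, were compared directly too. In C56BL6 the 20 Gy cells held more Dkk3 (1.36 ± 0.22, adjusted p = 0.00168 without the block and 6.07e-05 with it) and more Axin2 (3.48 ± 0.73, adjusted p = 0.00604 without the block and 0.000486 with it), with no overlap of the groups in either gene. Sfrp1 was higher and Lef1 lower there with the block alone, at 1.85 ± 1.05 (adjusted p = 0.187 without the block and 0.000225 with it) and -1.16 ± 0.74 (adjusted p = 0.241 without the block and 0.00275 with it). In *A. cahirinus* the same comparison gave 2.34 ± 0.48 for Sfrp2 (adjusted p = 0.00541 without the block and 0.000433 with it), 2.15 ± 0.38 for Dkk2 (adjusted p = 0.00299 without the block and 0.000918 with it) and 0.75 ± 0.20 for Wif1 (adjusted p = 0.0179 without the block and 0.0145 with it), again with groups apart. Axin2 and Lef1 were higher by 0.75 ± 0.22 (adjusted p = 0.0258 without the block and 0.0301 with it) and 1.81 ± 0.50 (adjusted p = 0.0196 without the block and 0.0044 with it) with overlapping groups. In wild mice Wnt5a and Dkk3 passed with the block alone, at 0.99 ± 0.35 (adjusted p = 0.122 without the block and 0.00895 with it; 0.0391 without replicate 1) and 1.61 ± 0.62 (adjusted p = 0.142 without the block and 0.000325 with it; 0.0024 without replicate 1).

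The wider pathway was counted over 76 other Wnt genes in 8 classes. At 12 d after 20 Gy, without the block, 23 of 60 (9 higher, 14 lower) were called for C56BL6, 0 of 54 (0 higher, 0 lower) for wild mice and 14 of 63 (9 higher, 5 lower) for *A. cahirinus*, against 26.5%, 0.0694% and 31.8% of all genes. With the block they were 41, 18 and 34, against 47.5%, 15.4% and 49.2% of all genes. The median change of the list was -0.25, -0.18 and 0.07. In C56BL6 the receptors and co-receptors gave 8 calls of 14, 2 higher and 6 lower, and ligands 4 of 10, 3 of them higher. Ligand genes split: Wnt11 was at 6.65 ± 2.18 against 2.02 ± 0.312 scaled CPM (1.75 ± 0.25, adjusted p = 0.00276) and Wnt16 at 0.74 ± 0.665 against 8.4 ± 6.79 scaled CPM (-3.45 ± 0.91, adjusted p = 0.0265), 20 Gy against untreated (means ± SD, n = 4). Ccnd1, which encodes cyclin D1 and is a known target, was higher at 516 ± 56.1 against 152 ± 74.8 scaled CPM (1.8 ± 0.32, adjusted p = 0.00645), as was Nkd2, an inhibitor of Dishevelled, at 100.7 ± 45.8 against 28.3 ± 5.59 scaled CPM (1.87 ± 0.34, adjusted p = 0.00648). Rspo1, which enhances Wnt signals, was lower at 1.03 ± 0.564 against 3.78 ± 2.02 scaled CPM (-1.83 ± 0.54, adjusted p = 0.0394), and Dact1, a binding partner of Dishevelled, at 4.7 ± 0.915 against 12.8 ± 4.9 scaled CPM (-1.4 ± 0.30, adjusted p = 0.0124).

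Other genes were named by the same rule in *A. cahirinus* after 20 Gy. Lgr6, a receptor for R-spondins, was higher at 34.5 ± 18.9 against 3.14 ± 1.23 scaled CPM (3.48 ± 0.55, adjusted p = 0.00254). Notum, an enzyme that strips the lipid from Wnt proteins, was at 3.28 ± 2.13 against 0.6 ± 0.392 scaled CPM (2.47 ± 0.70, adjusted p = 0.0279) and Wnt4 at 1.77 ± 0.409 against 0.53 ± 0.19 scaled CPM (1.74 ± 0.31, adjusted p = 0.00425), both higher. Myc, a growth gene and Wnt target, was lower at 48.7 ± 7.8 against 105 ± 9.37 scaled CPM (-1.1 ± 0.13, adjusted p = 0.000637). The receptor gene Fzd2 at 103 ± 11.2 against 181 ± 10.7 scaled CPM (-0.81 ± 0.09, adjusted p = 0.000662) and the antagonist Frzb at 4.22 ± 1.26 against 7.79 ± 0.839 scaled CPM (-0.88 ± 0.22, adjusted p = 0.0168) were lower too.

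On passage 28 of 55 (8 higher, 20 lower) of the wider list were called in C56BL6, 8 of 52 (1 higher, 7 lower) in wild mice and 18 of 61 (7 higher, 11 lower) in *A. cahirinus*, where 49.6%, 10.7% and 25.8% of all genes were. Both genes of Wnt secretion, Porcn and Wls, were lower in C56BL6 and *A. cahirinus*. Porcn, which adds the lipid to Wnt proteins, was at 47.8 ± 14.6 against 141 ± 26.9 scaled CPM in *A. cahirinus* (-1.58 ± 0.22, adjusted p = 0.00238) and at 9.25 ± 1.94 against 29.3 ± 10.6 scaled CPM in wild mice (-1.68 ± 0.29, adjusted p = 0.0184), passaged against untreated. Frizzled receptor genes were lower in wild cells, Fzd1 at 64.4 ± 7.04 against 291 ± 213 scaled CPM (-2.18 ± 0.48, adjusted p = 0.0301) and Fzd2 at 95.4 ± 19.1 against 276 ± 106 scaled CPM (-1.54 ± 0.33, adjusted p = 0.0291). In *A. cahirinus* Fzd9 was lower at 2.2 ± 0.531 against 9.79 ± 2.28 scaled CPM (-2.16 ± 0.24, adjusted p = 0.0012) and Fzd5 higher at 14.5 ± 1.37 against 7.55 ± 0.839 scaled CPM (0.92 ± 0.12, adjusted p = 0.00205).

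The largest falls on passage in C56BL6 by the naming rule were of Rspo1, at 0.0328 ± 0.0299 against 3.78 ± 2.02 scaled CPM (-6.71 ± 0.67, adjusted p = 0.000323; its passaged level is under the 3-read floor, so the fitted value depends on the prior count and is no bound), of the antagonist Sfrp4, at 0.994 ± 1.09 against 38.5 ± 57 scaled CPM (-5.3 ± 1.31, adjusted p = 0.0107), and of Wnt16, at 0.366 ± 0.301 against 8.4 ± 6.79 scaled CPM (-4.54 ± 0.90, adjusted p = 0.0041). Ccnd1 was higher at 489.7 ± 155 against 152 ± 74.8 scaled CPM (1.69 ± 0.38, adjusted p = 0.00706), with Myc at 89.5 ± 21.7 against 43.7 ± 19.9 scaled CPM (1.04 ± 0.30, adjusted p = 0.0208) and Znrf3, a membrane antagonist that removes Frizzled, at 11.2 ± 2.38 against 7.18 ± 0.735 scaled CPM (0.65 ± 0.17, adjusted p = 0.0129). Myc was also higher in passaged wild cells, 97.4 ± 18.9 against 44.3 ± 6.87 scaled CPM (1.13 ± 0.18, adjusted p = 0.0156). In passaged *A. cahirinus* Lgr6 and Notum were higher again, at 34.8 ± 12.7 against 3.14 ± 1.23 scaled CPM (3.46 ± 0.37, adjusted p = 0.00102) and 6.9 ± 2.82 against 0.6 ± 0.392 scaled CPM (3.53 ± 0.53, adjusted p = 0.0031), and Dact1 was lower at 5.58 ± 0.856 against 16.6 ± 7.19 scaled CPM (-1.58 ± 0.31, adjusted p = 0.00876). The passaged and 20 Gy groups share their untreated libraries, so these 2 sets of values are not independent.

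The genes whose pattern was most like that of a member were found among 10702 genes by the lower of 2 Pearson correlations of log2 CPM, over 56 mouse and 28 *A. cahirinus* libraries, after removing the mean of each population and time. The points share animals and library depth, and differences between animals were not removed. A value can therefore rest on few animals, such as replicate 2 of *A. cahirinus*, which stood above the others for Sfrp1 in every group. The values are descriptions. For Sfrp1 the nearest were Ptx3, a secreted pentraxin (r = 0.87 and 0.94), Il1r1, the interleukin-1 receptor (0.87 and 0.93), and Prickle1, a planar polarity gene (0.86 and 0.91), mouse first. For Dkk3 they were Hexa (0.73 and 0.79), Ppt1 (0.70 and 0.87) and Cdo1 (0.68 and 0.72), of which Hexa and Ppt1 encode lysosomal enzymes. Among the genes nearest to Wnt2 were Kif1a (0.74 and 0.71) and Sarm1 (0.70 and 0.79).

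Lef1 was nearest to Parvb (0.75 and 0.73), Fgd3 (0.82 and 0.71) and Tead4 (0.70 and 0.78). Those nearest to Sfrp2 included Mylip (0.71 and 0.83) and Adh1 (0.83 and 0.69), and Dkk2 went with Igfbp2 (0.75 and 0.73), Slco5a1 (0.72 and 0.78) and Aspn (0.72 and 0.69). Weaker values were found for Wif1 with Trp63 (0.81 and 0.65), Lhfpl2 (0.68 and 0.62) and Bcam (0.62 and 0.65), for Wnt5b with Tmbim6 (0.70 and 0.64), Fkbp9 (0.60 and 0.67) and Arhgap42 (0.61 and 0.60), and for Wnt5a with Mertk (0.57 and 0.68), Hspa1b (0.62 and 0.56) and Dipk1a (0.56 and 0.63). Axin2, under 1 CPM on average in the mouse table, was not compared.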

How the data were processed

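The authors counted reads per gene using featureCounts 2.0.3, per the file headers, and deposited these counts in 1 table for both mouse populations (GRCm39, Ensembl release 108) and 1 for *A. cahirinus* (AcoCah2, by gene name). Trim Galore and HISAT2 are named in the submitters' processing notes, and their settings are not given in the sources used here. The headers record no option for strand, read pairs beyond both ends mapped, or overlaps, so reads of antisense or overlapping genes cannot be told apart. The deposited Length column, exon length in bases, served as the other value, for levels per kb.

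Of 56980 mouse ids, 56236 matched a symbol in GENCODE vM39, and 18109 symbols were found in both species' tables. edgeR 4.0.16 (R 4.3.3) fitted raw counts of the groups compared, with filterByExpr, TMM scaling, the quasi-likelihood test and Benjamini-Hochberg adjustment over all genes tested; 33 comparisons were made, and 296 of 330 tests of members were possible. DESeq2 1.42.0, RLE factors, no filter, the replicate block and leaving out each replicate were alternatives. The blocked fits without replicate 1 were chosen after seeing the data. Replicate numbers stand for animals in the labels, and libraries of equal number deviated together: over 24 comparisons the mean correlation was 0.5 to 0.89, the lowest single pair 0.36. Without the block, p-values measure the spread between 4 animals, or possibly 3 in wild mice at 12 d. With it, the level of each animal is removed, and they measure how far the change varied from animal to animal. A 3-read floor covers counting error only. The test was tried on simulated counts first.

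The members and the Wnt list were chosen with earlier results of these data known. Other Wnt genes were named where they were among the 3 highest or 3 lowest changes of the called genes with a mean of at least 1 CPM, in 20 Gy or passaged against untreated cells at 12 d. Some genes with a pattern like that of a member are not reported here.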

Additional observations from a re-analysis of the deposited data

Results flagged for a closer look

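In groups averaging at least 1 CPM, 18 of 166 checked had a library far from its 3 group mates by Dixon's test, where chance flags about 1 in 20 groups. Values are scaled CPM. Replicate 2 of *A. cahirinus* was the highest for Sfrp1 in all 7 groups, at 23.4, 23.1 and 21.3 for 0, 10 and 20 Gy at 24 h, and 44.5, 66.2, 73.1 and 14.6 for 0, 10 and 20 Gy and passaged cells at 12 d. The same replicate was highest for Axin2 at 24 h after 10 Gy (35.5) and 20 Gy (36.7). Replicate 3 of that species was highest for Dkk2 in untreated cells at 12 d, at 5.49.

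C56BL6 replicate 1, the animal with keratin reads in all 7 libraries, was highest at 12 d for Wnt5a (135) and Dkk3 (468) in untreated cells and for Axin2 after 10 Gy (3.5) and 20 Gy (4.2). Replicate 2 was lowest for Dkk3 in passaged C56BL6 cells, at 60.7. Wild replicate 1 at 24 h, which differed from the 12 d libraries of its number by 42 on-or-off genes, was highest for Wnt5a in untreated (117) and 20 Gy cells (109.9), and wild replicate 4 for Wif1 in untreated cells at 24 h (7.63).

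Without the block, 5 tests of the difference of 2 responses passed the threshold, all between *A. cahirinus* and C56BL6 at 12 d. For 20 Gy against untreated the difference was 1.15 on the log2 scale for Wnt5a and -3.9 for Wif1. For passaged against untreated it was 5.92 for Sfrp2, 1.99 for Dkk3 and -4.28 for Lef1. The values of Wif1 and Sfrp2 rest on C56BL6 groups with 2 reads and are no bounds. Both genes passed the filter on low counts in these fits through the *A. cahirinus* libraries, and neither was tested within C56BL6 in the same comparison.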

How the results depend on the processing

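Counts below are members called. No change that was called reversed under any alternative, but the sign of some changes that were called neither before nor after did: Dkk2 in C56BL6 at 12 d was at -0.28 after 20 Gy and -0.25 after 10 Gy, and at 0.32 and 0.2 in the blocked fits without replicate 1. Over single members, DESeq2 added 14 calls and lost 0 of 286 values, RLE size factors added 1 of 296, testing without an expression filter lost 3, and the replicate block added 65 and lost 0 of 281. Leaving out each replicate lost 19 of the 31 calls in at least 1 fit. With the replicate block, which pairs libraries of 1 animal, the counts were 5 in C56BL6 24 h 20 Gy against untreated, 4 in C56BL6 24 h 10 Gy against untreated, 5 in C56BL6 12 d 20 Gy against untreated, 5 in C56BL6 12 d 10 Gy against untreated, 7 in C56BL6 12 d passaged against untreated, 7 in C56BL6 12 d 20 Gy against passaged, 3 in wild mice 24 h 20 Gy against untreated, 2 in wild mice 12 d 20 Gy against untreated, 2 in wild mice 12 d 10 Gy against untreated, 6 in wild mice 12 d passaged against untreated, 3 in wild mice 12 d 20 Gy against passaged, 1 in *A. cahirinus* 24 h 20 Gy against untreated, 2 in *A. cahirinus* 24 h 10 Gy against untreated, 4 in *A. cahirinus* 12 d 20 Gy against untreated, 2 in *A. cahirinus* 12 d 10 Gy against untreated, 3 in *A. cahirinus* 12 d 20 Gy against 10 Gy, 1 in *A. cahirinus* minus C56BL6 24 h 20 Gy response, 4 in *A. cahirinus* minus wild 24 h 20 Gy response, 1 in wild minus C56BL6 24 h 20 Gy response, 4 in *A. cahirinus* minus C56BL6 12 d 20 Gy response, 3 in *A. cahirinus* minus wild 12 d 20 Gy response and 5 in *A. cahirinus* minus C56BL6 12 d passage effect; it changed no other count by over 1.5 times. In blocked fits without replicate 1 they were 5 in C56BL6 24 h 20 Gy against untreated, 5 in C56BL6 24 h 10 Gy against untreated, 5 in C56BL6 12 d 20 Gy against untreated, 6 in C56BL6 12 d 10 Gy against untreated, 7 in C56BL6 12 d 20 Gy against passaged, 3 in wild mice 24 h 20 Gy against untreated, 3 in wild mice 24 h 10 Gy against untreated, 3 in wild mice 12 d passaged against untreated and 4 in wild mice 12 d 20 Gy against passaged, and 0 in wild mice 12 d at 20 Gy and at 10 Gy against untreated. Blocked without C56BL6 replicate 1 they were 3 in *A. cahirinus* minus C56BL6 24 h 20 Gy response, 1 in wild minus C56BL6 24 h 20 Gy response, 5 in *A. cahirinus* minus C56BL6 12 d 20 Gy response and 6 in *A. cahirinus* minus C56BL6 12 d passage effect, and without wild replicate 1 4 in *A. cahirinus* minus wild 24 h 20 Gy response, 1 in wild minus C56BL6 24 h 20 Gy response and 4 in *A. cahirinus* minus wild 12 d 20 Gy response. DESeq2 gave 4 in C56BL6 12 d 20 Gy against untreated, 2 in C56BL6 12 d 10 Gy against untreated, 1 in wild mice 24 h 20 Gy against untreated, 1 in wild mice 24 h 10 Gy against untreated and 2 in wild mice 12 d 20 Gy against passaged. Without a filter the counts were 2 in C56BL6 12 d 20 Gy against untreated, 1 in C56BL6 12 d 10 Gy against untreated, 0 in wild mice 12 d passaged against untreated, 1 in *A. cahirinus* 12 d 20 Gy against untreated and 0 in wild against C56BL6 24 h untreated, where the added C56BL6 calls are of Wif1, which the filter removes. Leaving out 1 replicate at a time gave 0 to 4 in C56BL6 12 d 20 Gy against untreated, 0 to 5 in C56BL6 12 d 10 Gy against untreated, 2 to 4 in C56BL6 12 d passaged against untreated, 0 to 1 in wild mice 12 d passaged against untreated, 0 to 2 in wild mice 12 d 20 Gy against passaged, 0 to 4 in *A. cahirinus* 12 d 20 Gy against untreated, 0 to 1 in *A. cahirinus* 12 d 10 Gy against untreated, 2 to 7 in *A. cahirinus* 12 d passaged against untreated, 3 to 7 in *A. cahirinus* 12 d 20 Gy against passaged, 1 to 3 in *A. cahirinus* minus C56BL6 12 d 20 Gy response, 0 to 1 in *A. cahirinus* minus wild 12 d 20 Gy response, 3 to 5 in *A. cahirinus* minus C56BL6 12 d passage effect and 0 to 1 in wild against C56BL6 24 h untreated. Apart from the removal of samples or genes, the cause was not tested. Calls without the block had to exceed the spread between animals, which limits them for Sfrp1, Sfrp2 and Dkk2. Depth limits Lef1, Sfrp2, Axin2 and Wif1 in mouse cells, where whole groups held few reads. The mouse and *A. cahirinus* tables were counted on separate annotations, so only changes were tested between species, and levels are set side by side without a test.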
